A study of Mus musculus with 80 samples.

Results

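Ribosome-bound RNA of brain microglia was measured after cell dissociation in the presence of transcription and translation inhibitors, and compared with ribosome-bound RNA taken straight from brain tissue. The comparison holds the libraries whose titles name the inhibitor-treated suspension (Cell-TRAP (+) Inhibitors, 4 mice, numbers 156, 157, 1361 and 1362) or the directly homogenised tissue (Tissue-TRAP, 4 mice, numbers 946 to 949), 8 of the 80 libraries of the series. All 8 mice carried Cx3cr1-cre/ERT2 on 1 allele and the floxed NuTRAP allele on 1 allele, and received tamoxifen at 100 mg/kg from about 3 months of age, with males and females in each group. For Tissue-TRAP the brain was homogenised at once in cold buffer with a translation elongation blocker. For Cell-TRAP (+) Inhibitors it was dissociated with warm papain and stirring with actinomycin D, triptolide and anisomycin present. The pelleted cells were lysed afterwards in the same cold buffer. The groups shared no mouse, so that the preparation and the cohort of mice cannot be told apart. The question was which differences from tissue are left when transcription and translation are blocked during dissociation, and all 16000 genes of the table were considered, of which 14723 were tested.

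In the NuTRAP design, the cre recombinase of cells that use the Cx3cr1 promoter opens an allele encoding an eGFP-tagged ribosomal protein L10a, and the tagged ribosomes are pulled down with their mRNAs by an antibody to eGFP (translating ribosome affinity purification, TRAP). The matching Input is the RNA of the lysate before pull-down. Microglia are the resident macrophages of the brain, and Cx3cr1 is also used by border-associated macrophages and some blood monocytes. Warm enzymatic dissociation is known to switch on immediate-early genes (Fos, Jun, Egr1) and then chemokine and NF-kB target genes. Actinomycin D and triptolide stop transcription and anisomycin stops peptide elongation, and they are used to limit the induction of genes during the warm step. Per the study's methods they were present in that step only, and not in the dissection or sorting buffers. How complete the block was is not known from these libraries.

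The 8 libraries held 8701726 to 11141511 counts in Tissue-TRAP and 11415144 to 12620580 counts in Cell-TRAP (+) Inhibitors. The 50 most abundant genes took 10.1 to 10.7% of the counts in Tissue-TRAP and 19.2 to 19.9% in Cell-TRAP (+) Inhibitors, and the part of this difference in the results was not tested. The marker genes fixed to check the cell types gave a summed level of 4845 to 5604 CPM (counts relative to the library size, which was scaled by the trimmed mean of M values) for microglia in Tissue-TRAP and 32174 to 33412 CPM in Cell-TRAP (+) Inhibitors. The sum for neurons was 5574 to 6668 CPM in Tissue-TRAP and 45.1 to 149 CPM in Cell-TRAP (+) Inhibitors, and that for astrocytes was 4273 to 6701 CPM and 1106 to 1611 CPM. The sum for endothelial cells was 147 to 227 CPM in Tissue-TRAP and 621 to 977 CPM in Cell-TRAP (+) Inhibitors. The gene of the tagged protein itself, Rpl10a, which every cell uses, was at 226 ± 17.8 CPM in Tissue-TRAP and 318 ± 15.3 CPM in Cell-TRAP (+) Inhibitors (mean ± SD, n = 4 each), under the fold required for a call.

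A gene was called where its fold change was over 2 and its adjusted p in edgeR's quasi-likelihood test was below 0.1. Of the 14723 genes, 7776 (52.8%) were called, with 3183 (21.6%) higher and 4593 (31.2%) lower in Cell-TRAP (+) Inhibitors. Over all genes tested the median log2 change was -0.13. Large fitted falls outnumbered large fitted rises: 1908 of the genes called lower and 93 of those called higher changed by at least 10-fold. The 1908 include genes with 3 counts or fewer in every Cell-TRAP (+) Inhibitors library, and their number among the 1908 was not counted. Fitted folds of the 433 called genes with 3 counts or fewer in every library of one group depend on the prior count and are not named singly. In 11142 genes (75.7%) the 4 libraries of one group lay wholly above the 4 of the other. In bulk RNA a lower level can come from fewer cells of a type or from less RNA per cell. The study proposes that differences shared by all cell preparations against Tissue-TRAP may come from slight differences in purity of the pulled-down RNA. These sources cannot be told apart here. The summed levels of microglial, neuronal, astrocytic and endothelial markers given above moved with the preparation. Their part in the result was not tested for any group of genes described below.

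**Figure D1:**
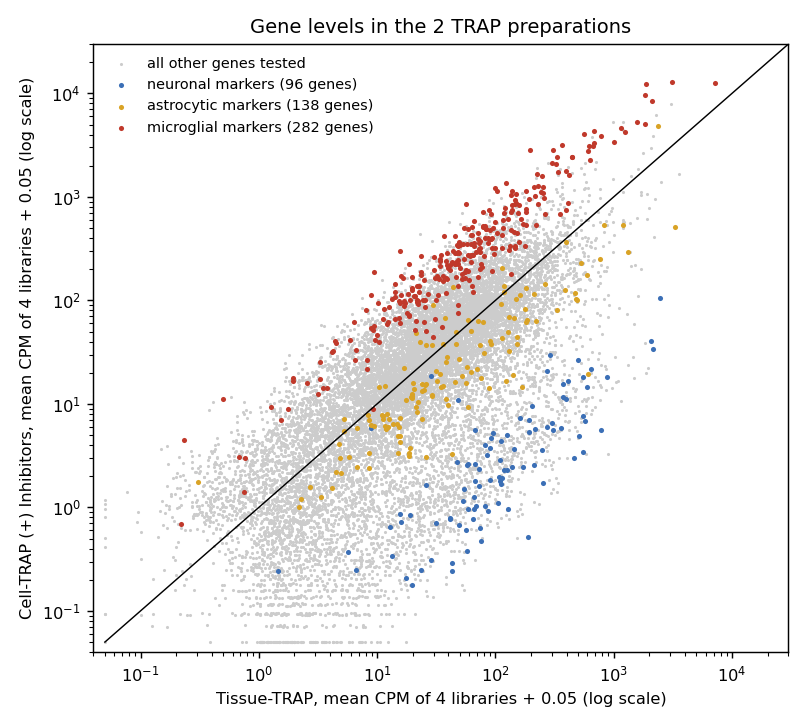
Mean CPM of each gene tested in Cell-TRAP (+) Inhibitors against its mean CPM in Tissue-TRAP (n = 4 each, both axes on a log scale after adding 0.05), with the neuronal, astrocytic and microglial markers in colour and a line where the levels are equal. Microglial markers lie above the line and neuronal markers below it, and astrocytic markers lie closer to the line and mostly below it.

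The microglial receptors rose together. P2ry12, the purinergic receptor that guides microglial processes (chr3:59216271-59262831, mm10), stood at 188, 185, 189 and 221 CPM in the Tissue-TRAP libraries and at 2866, 2987, 2965 and 2648 CPM in the Cell-TRAP (+) Inhibitors libraries. The ranges did not overlap, and the log2 fold change was 3.87 ± 0.13 (SE; edgeR adjusted p = 4.99e-14). Cx3cr1, the fractalkine receptor whose promoter drives the cre (chr9:120048683-120068296), was measured at 366, 324, 375 and 410 CPM in tissue and at 3040, 3145, 3175 and 3413 CPM in the suspension, a log2 change of 3.11 ± 0.10 (SE). Csf1r, the survival receptor of microglia, rose from 1881 ± 149 to 12439 ± 498 CPM (SD, n = 4), and Itgam and Ptprc, which encode the CD11b and CD45 proteins used to gate microglia, had log2 changes of 3.21 and 4.26. In each of these genes the groups did not overlap. Of the 34 homeostatic microglial genes tested, 32 rose and 0 fell, against 21.6% and 31.2% of all genes, with a median log2 change of 2.41. The remaining members were Cst3, which encodes the protease inhibitor cystatin C, with a log2 change of 0.81, and Crybb1, a crystallin gene of young microglia, with 0.93. Both were named because they were the exceptions. Crybb1 passed the fold threshold under 4 alternatives, with log2 changes of 1.00 to 1.02: without the tissue library of mouse 948, with 8 or 12 libraries in the fit and in an earlier deposited table.

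Among the 12 largest rises at a mean of 20 CPM or more were genes of several kinds. Tlr9, the endosomal sensor of unmethylated DNA, was at 11.9, 6.92, 8.41 and 10.5 CPM in tissue and at 165, 173, 212 and 206 CPM in the suspension, a log2 change of 4.32 ± 0.21 (SE). Itga6, which encodes the laminin-binding integrin alpha 6, went from 23.2 ± 6.06 to 434 ± 66.6 CPM (SD, n = 4). Clec7a, the beta-glucan receptor dectin-1, went from 3.32 ± 0.982 to 57.5 ± 22.9 CPM, and Eya4, a transcription cofactor, from 1.76 ± 0.501 to 29.8 ± 3.69 CPM. Mob1a, which encodes an activator of kinases of the Hippo pathway, went from 10.9 ± 2.50 to 158 ± 4.59 CPM, and Abca1, the cholesterol exporter, from 40.4 ± 3.66 to 572 ± 123 CPM. In each of these genes the lowest suspension library was above the highest tissue library.

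Transcription factors of microglial identity rose too. Among 20 microglial transcription factors tested, 18 (90%) rose and 0 fell, beside 21.6% and 31.2% of all genes, with a median log2 change of 2.21. Sall1, the zinc finger factor that maintains the microglial state, was at 132, 111, 134 and 154 CPM in tissue and at 686, 732, 725 and 653 CPM in the suspension, a log2 change of 2.39 ± 0.15 (SE). Mef2a, a MADS-box factor, rose from 31.4 ± 9.61 to 238 ± 16.3 CPM (SD, n = 4). The members not called were Mef2c, a MADS-box factor that neurons also use, and Tfec, both named as exceptions. Mef2c was at 423 ± 107 CPM in tissue and 429 ± 42.5 CPM in the suspension, and the sign of its small log2 change, 0.02, turned under several settings. Tfec was measured at 1.01 CPM or below on average in both groups.

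Lysosomal and state-related gene groups of microglia rose as well. All 20 lysosomal protease and membrane genes tested were called higher, where 21.6% of all genes were. Their median was 2.09 on the log2 scale and their lowest value 1.35. Lamp2, a lysosomal membrane protein, rose from 83.0 ± 8.13 to 682 ± 57.5 CPM, and Ctsc, cathepsin C, from 78.5 ± 4.46 to 521 ± 14.3 CPM (SD, n = 4), with no overlap in either gene. Of 23 disease-associated microglial genes, 19 rose and 0 fell (median 1.93), and Itgax, the CD11c integrin, went from 4.58 ± 1.70 to 57.1 ± 13.8 CPM. Of 25 interferon-stimulated genes, 23 rose and 0 fell (median 1.96). Mx1, an antiviral GTPase, was between 0.203 and 0.420 CPM in tissue and between 5.06 and 14 CPM in the suspension. These medians lie close to the 2.41 of the homeostatic genes, and no difference among the lists was tested.

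A wider microglial gene list came from Input libraries outside the main comparison. The unsorted suspensions among them were made from the mice of Tissue-TRAP, and the FACSAria libraries from other mice. In the sort experiment of the series, 1061 of 15076 genes (7.04%) were higher by over 2 on the log2 scale, with an adjusted p below 0.1, in Input RNA of microglia sorted on a FACSAria instrument than in the unsorted suspension. Of these, 955 were tested here: 822 (86.1%) rose and 26 (2.72%) fell in Cell-TRAP (+) Inhibitors, beside 21.6% and 31.2% of all genes. Their median log2 change was 2.15, and their quartiles lay at 1.6 and 2.63. In all, 903 of the 955 had a log2 change above 0. The genes called lower included Egr1, Egr3, Fosb and Nr4a1, transcription factors of the immediate-early response. A further 13 of the 26 were genes of proteins secreted by the liver, a grouping made after their values were seen, led in level by Alb, serum albumin. Alb was at 24.3, 44.3, 49.9 and 73.2 CPM in tissue and at 22.1, 25.8, 19.7 and 16.7 CPM in the suspension. These ranges overlapped, and the log2 change of -1.18 became -0.90, under the fold threshold, without the tissue library of mouse 949.

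Transcript length moved with the size of the rise. When the sorted-microglia genes were put into 4 classes of 226 genes by the length of their longest annotated transcript, the median log2 change was 1.73 in the shortest class (median length 1484 bases), 2.11 in the next (2495 bases), and 2.36 in both of the longer classes (3793 and 5530 bases). Over all genes tested, the medians of the same kind were -0.32, -0.08, -0.05 and -0.02. Short transcripts were thus lower relative to long ones in the suspension, in the list and in the whole table. The study reports that read coverage in Tissue-TRAP was more biased to the tail end of transcripts than in Cell-TRAP with or without inhibitors. The part of transcript length and of this coverage bias in the results was not tested.

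**Figure D2:**
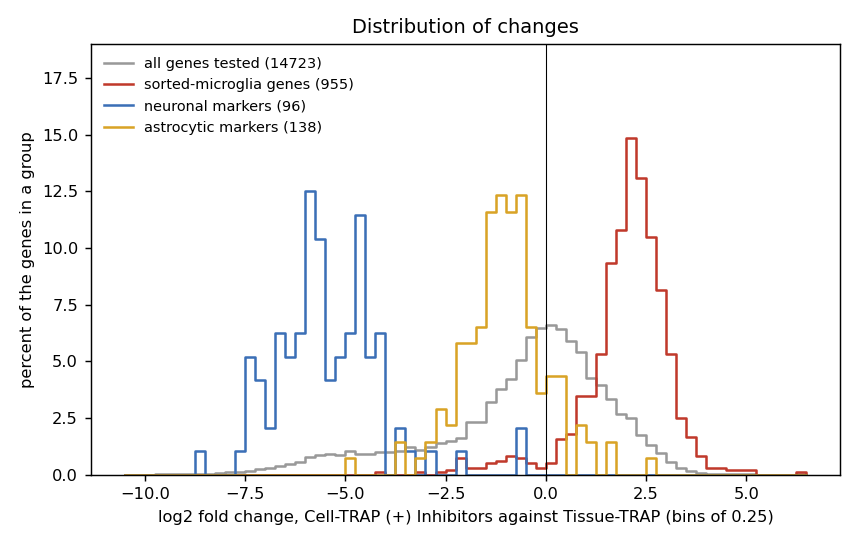
Distribution of the log2 fold change of Cell-TRAP (+) Inhibitors over Tissue-TRAP, as the percent of the genes of a group in bins of 0.25, for all genes tested, sorted-microglia genes, neuronal markers and astrocytic markers. All genes peak near 0 with a long tail of falls, the sorted-microglia genes centre on their median of 2.15, and the neuronal markers lie between -8.65 and -0.62.

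Neuronal markers had the lowest median of the 5 cell type lists. Snap25, a membrane fusion protein of the synapse (chr2:136713450-136782428), was at 2216, 2203, 2101 and 2153 CPM in the Tissue-TRAP libraries and at 44.2, 47.5, 33.2 and 10.7 CPM in the Cell-TRAP (+) Inhibitors libraries. The groups were far apart, and Snap25 fell by 6.0 ± 0.37 (SE) on the log2 scale. Nrgn, a postsynaptic calmodulin-binding protein, went from 901 ± 64.8 to 3.21 ± 1.43 CPM (SD, n = 4), and Sst, the peptide somatostatin of inhibitory interneurons (chr16:23889581-23890844), from 188 ± 31.5 to 0.464 ± 0.462 CPM. Nefm, a neurofilament subunit, fell by 7.65 on the log2 scale. Of 96 neuronal markers tested, 94 (97.9%) fell, beside 31.2% of all genes, and 0 rose, with a median of -5.54. All 19 synaptic core genes fell. The summed level of the neuronal markers was 21245 to 23650 CPM in tissue and 369 to 795 CPM in the suspension.

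Astrocytic and oligodendrocytic RNA fell by less, and unevenly. Of 138 astrocytic markers, 70 (50.7%) fell and 5 (3.62%) rose, beside 31.2% and 21.6% of all genes (median -1.05). Of 192 oligodendrocytic markers, 109 (56.8%) fell and 18 (9.4%) rose (median -1.34). Gfap, the astrocyte intermediate filament, was at 134, 121, 164 and 141 CPM in tissue and at 10.5, 12.6, 22.5 and 30.0 CPM in the suspension. Slc1a2, a glutamate transporter of astrocytes, fell by 2.70 ± 0.25 (SE) on the log2 scale. Slc1a3, the sister transporter, did not pass the test, at 397 ± 76.3 CPM in tissue and 363 ± 29.5 CPM in the suspension with overlapping libraries. Of 15 myelin core genes, 8 fell and 1 rose. Mbp, myelin basic protein, went from 398 ± 68.4 to 174 ± 50.1 CPM (SD, n = 4), without overlap. The member that rose was Trf, the iron carrier transferrin, which was at 635, 551, 697 and 600 CPM in tissue and at 2870, 3012, 2817 and 2677 CPM in the suspension. Of 14 oligodendrocyte progenitor genes, 9 fell and 1 rose (median -2.07), and the rise was lost without the suspension library of mouse 1361.

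Vascular and border-macrophage genes went the other way. Of 230 endothelial markers, 150 (65.2%) rose and 6 (2.61%) fell, beside 21.6% and 31.2% of all genes (median 1.4). Of 15 brain endothelial core genes 14 rose and 0 fell (median 2.39). In a separate fit with at least 10 counts required in every library, 94 of the endothelial markers were tested and 58 rose. There 2 of the core genes were tested and both rose, and 2063 of all 10308 genes tested rose. Flt1, a receptor for vascular endothelial growth factor, was at 27.4, 22.2, 22.9 and 17.6 CPM in tissue and at 230, 173, 208 and 154 CPM in the suspension. Cldn5, the tight junction claudin of brain vessels, rose from 57.5 ± 19.4 to 181 ± 49.9 CPM (SD, n = 4). Its groups did not overlap, but the call was lost with limma on the deposited log2 values (adjusted p = 0.19). Among 19 border-associated macrophage genes, 17 rose and 0 fell (median 1.57), and Mrc1, the mannose receptor CD206, went from 54.2 ± 7.93 to 495 ± 71.3 CPM. Stab1, a scavenger receptor, went from 224 ± 33.2 to 1658 ± 159 CPM.

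Blood and mural genes were low and less settled. Of 19 blood cell genes only 7 had enough counts to be tested. Of these 7, 5 (71.4%) rose and 0 fell, beside 21.6% and 31.2% of all genes. Their median of 1.45 was 0.96 without the suspension library of mouse 156, when 2 were called. Hba-a1, an alpha-globin gene, was at 18.3, 27.2, 15.9 and 21.7 CPM in tissue and at 102, 55.4, 39.8 and 43.5 CPM in the suspension. The suspension of mouse 156 was the highest, and the groups did not overlap. Of 13 pericyte and smooth muscle genes 2 (15.4%) rose and 2 (15.4%) fell, beside 21.6% and 31.2% of all genes (median -0.01). Of 13 ependymal and choroid plexus genes 0 rose and 1 (7.69%) fell (median 0.12). These counts moved by 1 or 2 genes when single libraries of mice 156, 947, 948 or 1361 were left out.

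**Figure D3:**
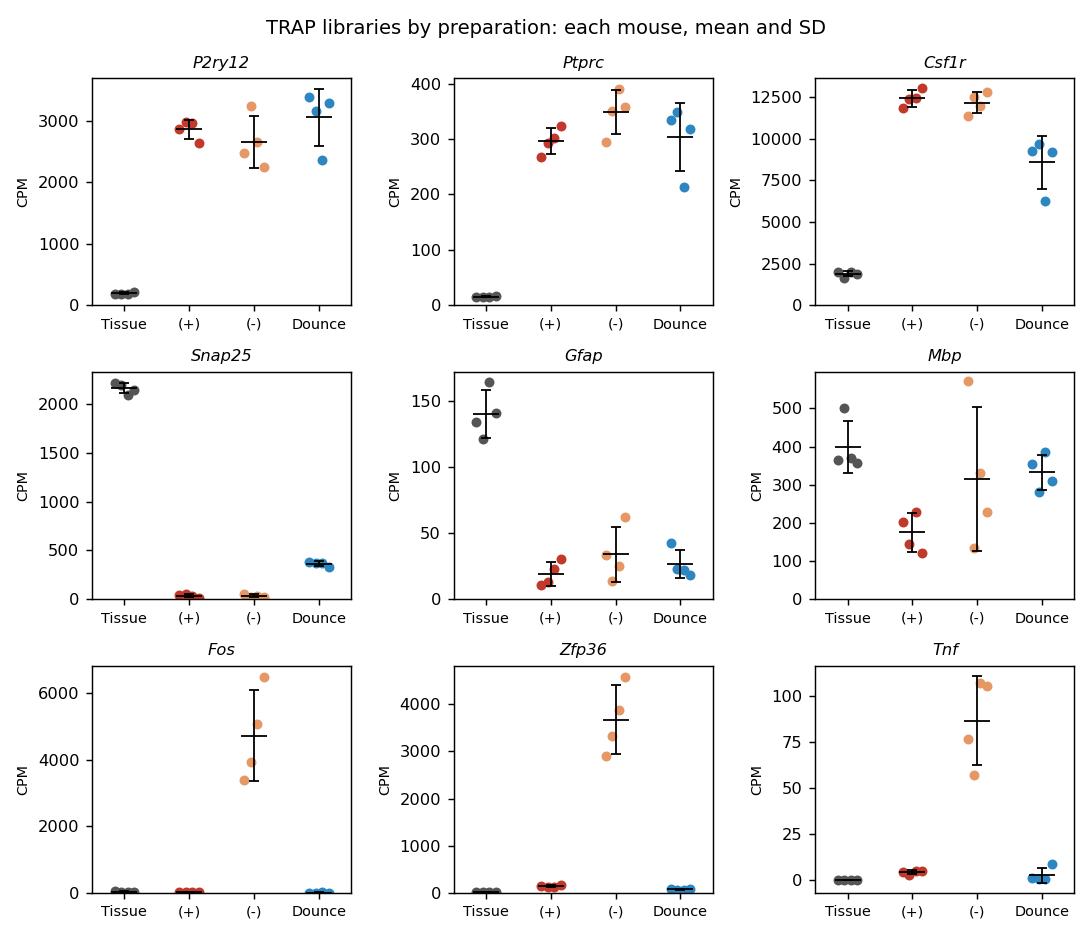
CPM of 9 genes in each TRAP library (points, 1 mouse each) with mean and SD (n = 4) for Tissue-TRAP, Cell-TRAP (+) Inhibitors, Cell-TRAP (-) Inhibitors and Dounce-TRAP, a suspension made by cold mechanical grinding without enzymes. P2ry12, Ptprc and Csf1r are low in tissue and high in every suspension, Snap25 and Gfap are high in tissue alone, and Fos, Zfp36 and Tnf are high in the suspension without inhibitors.

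With inhibitors present, 7 of the 27 AP-1 and other immediate-early transcription factors tested rose and 9 fell against tissue, shares of 25.9% and 33.3% beside 21.6% and 31.2% of all genes. Fos, the founding member of the AP-1 family (chr12:85473901-85477270), was at 44.3, 30.7, 19.3 and 24.6 CPM in Tissue-TRAP and at 17.6, 22.5, 12.7 and 23.6 CPM in Cell-TRAP (+) Inhibitors. The groups overlapped, and the log2 change of -0.64 ± 0.29 (SE) was under the fold threshold. In the suspension of the same 4 mice made without inhibitors (Cell-TRAP (-) Inhibitors), Fos was at 3389, 3942, 5063 and 6486 CPM. Jun was at 82.5 ± 14.8 CPM in tissue, 119 ± 6.80 CPM with inhibitors and 4339 ± 988 CPM without them, and Junb was at 64.1 ± 13.2, 120 ± 7.71 and 2454 ± 625 CPM (SD, n = 4). Neither was called against tissue, although Junb passed the fold threshold without the tissue library of mouse 946 (log2 change 1.06). Egr1, a zinc finger factor, was lower with inhibitors than in tissue in all libraries, at 23.4 ± 5.68 against 108 ± 30.3 CPM, and at 2921 ± 933 CPM without inhibitors. Fosb went from 28.7 ± 7.69 CPM in tissue to 3.38 ± 1.20 CPM with inhibitors, and Nr4a1, an orphan nuclear receptor, from 52.1 ± 10.3 to 12.8 ± 4.03 CPM.

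Other members of the class rose. Atf3, a stress-induced bZIP factor, was at 10.6, 7.03, 7.2 and 7.64 CPM in tissue and at 21, 22.8, 21.1 and 21.5 CPM with inhibitors, a log2 change of 1.4 ± 0.28 (SE), and at 1042 ± 390 CPM without inhibitors. Klf6, a Krueppel-like factor, rose by 2.08, from 49.3 ± 5.08 to 209 ± 11.9 CPM, and Klf2 by 1.65, from 28.3 ± 7.72 to 88.9 ± 16.3 CPM (SD, n = 4). Egr4, which neurons use, fell by 6.18 on the log2 scale, and its level was 0.661 CPM or below on average in both suspensions. Over the 27 factors the median log2 change was -0.15, and it was 0.52 when at least 10 counts were required in every library. Without inhibitors, 53.2% of all genes were called against tissue (22.3% higher and 30.8% lower), and 17 members of the list rose and 5 fell, with a median of 2.47. The summed level of the list was 1046 to 1387 CPM in tissue, 1179 to 1333 CPM with inhibitors and 16207 to 29075 CPM without. The sums with inhibitors lay inside the tissue range.

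The feedback genes that follow the immediate-early factors were split. Zfp36, which encodes the mRNA decay factor tristetraprolin, was at 12.2, 12.4, 15.7 and 16.4 CPM in tissue, at 135, 131, 131 and 173 CPM with inhibitors and at 2895, 3319, 3877 and 4582 CPM without them. The 3 groups were apart, and the change of Zfp36 against tissue was 3.33 ± 0.17 (SE) on the log2 scale with inhibitors. Zfp36l2, a member of the same family, rose from 52.5 ± 6.81 to 702 ± 72.3 CPM, and Rgs1, a regulator of G-protein signalling, from 3.25 ± 1.80 to 25.3 ± 4.5 CPM (SD, n = 4). Arc, a neuronal activity gene, went from 91.0 ± 23.8 to 1.92 ± 0.743 CPM, and Dusp8, a MAP kinase phosphatase, from 180 ± 21 to 10.1 ± 3.81 CPM. Of 30 early-response feedback genes, 11 (36.7%) rose and 10 (33.3%) fell against tissue, beside 21.6% and 31.2% of all genes (median 0.45, and 1.18 when at least 10 counts were required in every library). Without inhibitors, 21 rose and 8 fell (median 3.22).

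Against the suspension without inhibitors, 94 genes (0.638%) were called in the TRAP libraries, 93 (0.632%) lower and 1 (0.00679%) higher with inhibitors. With the mouse as a block 150 genes were called, 15 of them higher. The gene that was higher is Cib2, a calcium- and integrin-binding protein, at 11.5 ± 1.26 CPM with and 5.38 ± 0.836 CPM without inhibitors (SD, n = 4), and the call was lost when any of the 4 mice was left out (adjusted p = 0.22 to 0.45). The 93 genes lower with inhibitors were chosen with the Cell-TRAP (+) Inhibitors libraries, so that their levels are given as a description. Against tissue, 42 of them were higher, 14 lower and 37 not called with inhibitors (median 0.95), and 84 were higher, 3 lower and 6 not called without inhibitors (median 3.59).

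**Figure D4:**
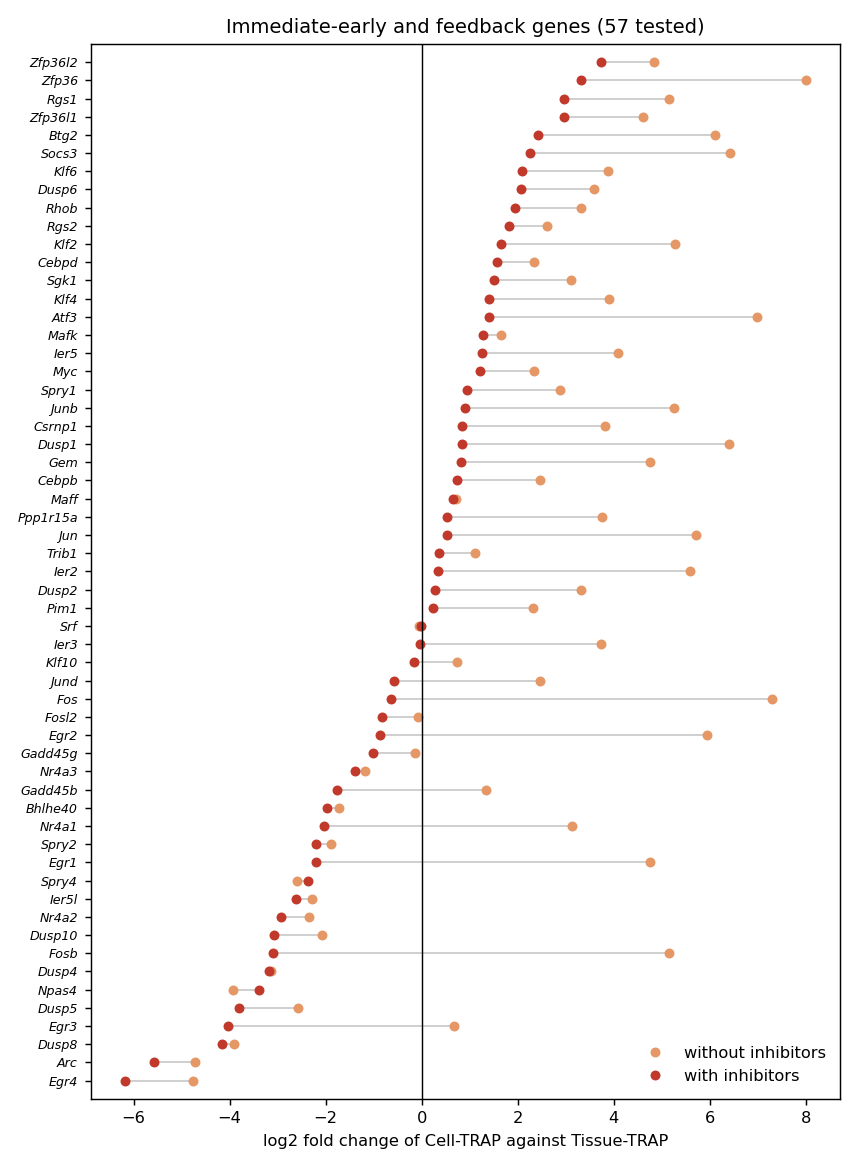
Log2 fold change against Tissue-TRAP of the 57 immediate-early and feedback genes tested, with inhibitors and without them, each gene on its own line and ordered by the value with inhibitors. Fos lies at -0.64 with inhibitors and at 7.31 without, Zfp36 stays above tissue at 3.33 with inhibitors, and Arc and Egr4 lie far below tissue in both preparations.

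Cytokine and NF-kB genes stayed above tissue with inhibitors. Ccl3, a chemokine of activated microglia, was at 2.58, 4.51, 4.87 and 3.06 CPM in tissue and at 15.2, 11, 10.5 and 19.7 CPM with inhibitors, against 275 ± 152 CPM (SD, n = 4) without them. Ccl4, a related chemokine, went from 1.70 ± 0.805 to 8.79 ± 1.81 CPM and was at 245 ± 140 CPM without inhibitors. Il1b, the cytokine interleukin 1 beta, was at 0.578 ± 0.280, 3.36 ± 1.79 and 96.3 ± 71.2 CPM in the same order. Tnf, tumour necrosis factor, had at most 4 counts in a tissue library and 2.67 to 5.35 CPM with inhibitors, against 86.7 ± 24.1 CPM without. Levels with inhibitors were above tissue in all libraries for these 4 genes. Of 23 cytokine and chemokine genes, 17 (73.9%) rose and 1 (4.35%) fell, beside 21.6% and 31.2% of all genes (median 2.05). The one that fell was Ccl25, a thymic and gut chemokine, from 2.77 ± 0.615 to 0.794 ± 0.266 CPM. Without inhibitors 21 rose and 1 fell (median 3.41).

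Among the NF-kB subunits and feedback genes, 17 of 20 (85%) rose and 0 fell, beside 21.6% and 31.2% of all genes (median 2.14). The same counts were found without inhibitors (median 2.57). With inhibitors, both the median of this list and the 2.05 of the cytokine list were below the 2.34 of the microglial markers. The lists are not separate, as Rel is in both the NF-kB list and the microglial markers. Of the 282 microglial markers, 25 were themselves called lower with inhibitors than without, beside 0.632% of all genes. No difference among these lists was tested. Nfkbia, the inhibitor of NF-kB alpha, was at 54.5, 83.4, 67.2 and 46.9 CPM in tissue and at 141, 137, 123 and 154 CPM with inhibitors, a log2 change of 1.14 ± 0.17 (SE). It was at 660 ± 160 CPM without inhibitors. Nfkbiz, an atypical IkB protein, went from 3.22 ± 0.392 to 17.2 ± 2.24 CPM, and was at 375 ± 201 CPM without inhibitors. Rel, the c-Rel subunit, went from 0.446 ± 0.378 to 11.2 ± 1.09 CPM, and Icam1, an adhesion molecule, from 23.5 ± 4.15 to 187 ± 11.9 CPM. For Icam1, the level without inhibitors was 246 ± 28.5 CPM, and the difference between the suspensions did not pass the test (log2 change -0.40).

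Of 20 heat shock and chaperone genes 0 rose and 7 (35%) fell, with a median of -0.72, and the share that fell was near the 31.2% of all genes. Hspa1a, the inducible HSP70, was at 44.6, 18.3, 12.9 and 8.81 CPM in tissue and at 10.9, 11.1, 4.2 and 5.01 CPM with inhibitors, with overlap. Its log2 change of -1.44 was -0.77 and no longer passed the test (adjusted p = 0.15) without the tissue library of mouse 946, and its level without inhibitors was 166 ± 24 CPM (SD, n = 4). Hspa4l, a chaperone of the HSP110 family, fell by 2.74 on the log2 scale, from 82.6 ± 12.8 to 12.3 ± 1.86 CPM. Hspa5, the endoplasmic reticulum chaperone BiP, was at 602 ± 68.8 and 910 ± 66.0 CPM, under the fold threshold. Of 27 genes of the unfolded protein and integrated stress responses, 11 (40.7%) rose and 2 fell (median 0.76), beside 21.6% and 31.2% of all genes. In a separate fit that required at least 10 counts in every library, 24 members were tested and 5 rose. In that fit 2063 of all 10308 genes tested rose. Slc3a2, an amino acid transporter subunit, rose by 1.88 and Pdia3, a disulfide isomerase, by 1.41. The members that fell were Asns, asparagine synthetase, from 73.6 ± 6.91 to 3.31 ± 1.14 CPM, and Chac1, a glutathione-degrading enzyme, from 7.74 ± 1.20 to 0.526 ± 0.238 CPM. Of 19 p53 target genes, 4 (21.1%) rose and 4 (21.1%) fell, beside 21.6% and 31.2% of all genes (median 0.37). Btg2, an antiproliferative gene, rose by 2.43 and Plk2, a polo-like kinase, fell by 2.89, while Cdkn1a, the cell cycle inhibitor p21, was at 78.3 ± 11.1 and 51.2 ± 2.10 CPM, under the fold threshold.

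Genes of the translation machinery moved by small amounts and respiratory genes fell. Of 80 cytosolic ribosomal protein genes, 0 rose and 2 fell (median -0.15), namely Rpl22l1, a paralog of Rpl22, with a log2 change of -1.88, and Rpl38 with -1.09. Of 24 translation elongation and initiation factors, 0 were called by edgeR, the DESeq2 Wald test or limma, although 18 had an unadjusted edgeR p under 0.05, with log2 changes from -0.57 to 0.89 (median -0.01). Without the tissue library of mouse 946, 1 was called higher. Of 90 nuclear genes of oxidative phosphorylation, 71 (78.9%) fell, beside 31.2% of all genes, and 0 rose (median -1.4). Cox5a, a subunit of cytochrome c oxidase, was at 248, 253, 276 and 241 CPM in tissue and at 51.3, 52.9, 53.6 and 48.2 CPM with inhibitors. Ndufaf5, an assembly factor of complex I, went from 39.4 ± 0.671 to 6.30 ± 1.65 CPM (SD, n = 4). Of the 89 respiratory genes with a known length, 73 fell in the shortest length class of all genes, and their median length was 1141 bases. The ribosomal protein genes were as short, with 67 of 79 in that class and a median length of 1106 bases. The part of transcript length in the change of either list was not tested. Of 19 cholesterol synthesis genes, 5 (26.3%) fell, beside 31.2% of all genes, and 0 rose (median -0.67).

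Of 15 nuclear long noncoding RNAs, 10 (66.7%) fell, beside 31.2% of all genes, and 0 rose (median -2.42). Malat1, a nuclear speckle RNA, was at 143, 560, 216 and 206 CPM in tissue and at 92.9, 87.9, 105 and 55.6 CPM with inhibitors. The tissue library of mouse 947 was the highest, and the groups did not overlap. Snhg11, a neuronal noncoding RNA, was likewise highest in mouse 947, at 192, 1021, 431 and 547 CPM in tissue against 7.65 ± 2.85 CPM (SD, n = 4) with inhibitors. Of 21 snoRNA host genes and other transcripts known as targets of nonsense-mediated decay, a pathway that needs translation, 1 rose and 7 (33.3%) fell (median -0.36). The share that fell was near the 31.2% of all genes, and the rise was lost without the tissue library of mouse 946 or 948 or the suspension library of mouse 1362. Gas5, a snoRNA host gene, went from 43.1 ± 7.80 to 17.4 ± 2.32 CPM, and was at 18.7 ± 1.24 CPM without inhibitors. Of 17 SR splicing factors, 4 (23.5%) rose, beside 21.6% of all genes, and 0 fell (median 0.64).

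The Input libraries of the same preparations show what the lysates held before pull-down. Between Cell-Input (+) Inhibitors and Tissue-Input, 15753 genes were tested and 7187 (45.6%) called, 4012 (25.5%) higher and 3175 (20.2%) lower. The microglial markers had a median log2 change of 3.99 in Input and 2.34 in TRAP, and 265 of them rose in Input and 268 in TRAP. The endothelial markers had 3.06 in Input and 1.4 in TRAP, and the neuronal markers -3.44 in Input and -5.54 in TRAP. Of the astrocytic markers 88 rose and 3 fell in Input, with a median of 1.24, and of the oligodendrocytic markers 112 rose and 10 fell, with a median of 1.27, while both medians were below 0 in TRAP. In Input, P2ry12 had a log2 change of 6.23 and Cx3cr1 one of 5.10.

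The difference between the TRAP change and the Input change was tested for 15894 genes in 1 fit, and 5862 (36.9%) were called, 305 (1.92%) with a higher and 5557 (35%) with a lower change in TRAP. The median difference over all genes was -0.58. Each difference was tested against 0 and not against that median, so that the calls and medians given here include the shift. The microglial markers had a median difference of -1.89, with 205 of 282 lower, and the neuronal markers one of -2.37, with 88 of 96 lower. P2ry12 had a difference of -2.56 ± 0.25 (SE) and Cx3cr1 one of -2.19 ± 0.23. At the upper end, Ano6, a membrane scramblase, changed by 1.62 in TRAP and by -0.84 in Input. At the lower end, Spock1, a neuronal proteoglycan, changed by -6.75 in TRAP and by -1.36 in Input, and Igf2, a growth factor of meninges and vessels, by -3.70 and 1.48. Fcrl1, an Fc receptor-like gene known from B cells, changed by 2.87 in TRAP, from 5.82 ± 1.16 to 42.6 ± 4.88 CPM (SD, n = 4). In Input it was at 0 in all 4 tissue libraries and at 6.63 to 9.99 CPM in the suspension libraries, and no Input fold is given. With the mouse as a block, 1182 genes had a higher change in TRAP, of 5780 called in all.

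**Figure D5:**
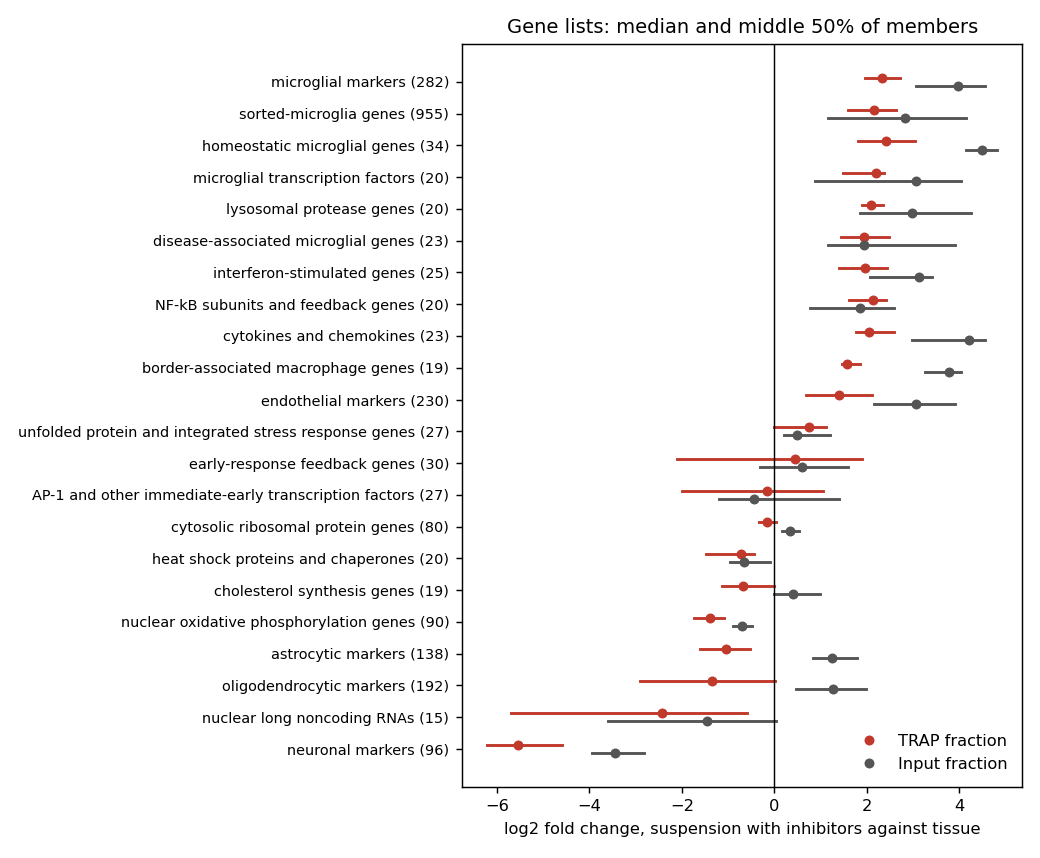
Median log2 fold change (points) and middle 50% of members (bars) of 22 gene lists for the suspension with inhibitors over tissue, in the TRAP and in the Input fraction, with the number of members tested in TRAP in parentheses. Microglial markers lie to the right of 0 in both fractions, at 2.34 in TRAP and 3.99 in Input, and astrocytic and oligodendrocytic markers lie to the left of 0 in TRAP and to the right in Input.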

How the data were processed

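RNA-seq of TRAP and Input fractions was analysed from the table of the inhibitor experiment. Per the labels and the study's methods, the authors aligned reads to mm10 and removed duplicates in Strand NGS, then normalised with DESeq2. The deposited raw columns hold expected counts that need not be whole (21.2% were), which were rounded here, and 23 symbols stored as dates were restored. The deposited log2 values were used only in an alternative. Genes with more than 5 counts in every library of at least 1 group went into edgeR 4.0.16 (quasi-likelihood F-test, R 4.3.3) after trimmed-mean scaling over all 16 TRAP libraries of the experiment, with Benjamini-Hochberg adjustment. Calls needed an adjusted p below 0.1 and a fold over 2, as in the study's methods. Replicates are separate mice. The depth of 8701726 to 12620580 counts in the 8 libraries compared limits genes near 3 counts. Input, and the difference of the TRAP and Input changes, were fitted in the same way. Suspensions with and without inhibitors came from the same 4 mice. Same-mouse libraries deviated together (correlations 0.305, 0.107, 0.191 and 0.453, against a mean of -0.087 for different mice), and the mouse as a block was an alternative. The tissue mice were others, so that the main comparison has no pairs. Transcript lengths were those of the longest GENCODE transcript of each symbol, matched for 94.0% of genes. Scripts were tested on simulated data.

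Genes were named by rule: the 12 largest rises and 12 largest falls without overlap of the groups at a mean of 20 CPM or more, up to 2 called rises and 2 called falls per list at 5 CPM or more, a fixed set of microglial, stress and cell type genes, the 8 largest rises and falls of the sorted-microglia genes and the 8 largest of the difference between TRAP and Input. Other genes are said to be exceptions or chosen after their values were seen. The 5 cell type marker lists come from the study's supplement, and the other lists from general knowledge. The comparison, the genes and the lists were chosen with earlier results of these data known. Some genes that the rule names are not reported here. Alternatives were DESeq2 1.42.0 and its size factors, limma 3.58.1, other filters, other sets of libraries, an earlier deposited table, sex as a covariate and leaving out each library.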

Additional observations from a re-analysis of the deposited data

Results flagged for a closer look

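In 11 of 218 groups of 4 libraries examined, 1 library lay far from the other 3 by Dixon's test, a rate that chance gives in about 1 of 20 groups. Of these, 4 were in the tissue library of mouse 949 or 946: P2ry12 at 221 CPM (others 185 to 189), Mef2a at 45.7 CPM (others 24.7 to 27.8) and Dclk1 at 802 CPM (others 526 to 547) in mouse 949, and Egr4 at 27.2 CPM (others 14.3 to 16.4) in mouse 946. The tissue library of mouse 947 was high for Mbp, at 500.0 CPM (others 356 to 370), and for Cgn, which encodes the junction protein cingulin, at 15.3 CPM (others 4.22 to 5.37). The tissue library of mouse 948 was low for Plk2, at 76.1 CPM (others 90.6 to 92.4), and for Ndufaf5, at 38.4 CPM (others 39.6 to 39.9). In Cell-TRAP (+) Inhibitors, all 3 such values were in mouse 1362, with Tmem119 at 2616 CPM (others 3257 to 3289), Dclk1 at 8.63 CPM (others 22.5 to 23.9) and Zfp36 at 173 CPM (others 131 to 135). Except for Cgn, whose suspension library of mouse 1362 was at 12.6 CPM, these values stayed on their own group's side of the other group.

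The change between preparations differed between the TRAP and the Input fraction in 5862 genes, by the edgeR test of the difference itself.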

How the results depend on the processing

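The number of genes called between Cell-TRAP (+) Inhibitors and Tissue-TRAP (7776) lay between 7559 and 8160 under 17 of 18 alternatives. Requiring at least 10 counts in every library left 4624 called genes, 2063 higher and 2561 lower. With it 10308 genes were tested and 44.9% of them called, where 52.8% of 14723 were called in the main fit. The cause of the lower share was not tested. Under that filter the median log2 changes were 2.13 for microglial markers, -1.55 for oligodendrocytic markers, 0.52 for immediate-early transcription factors and 2.00 for sorted-microglia genes. The median of the sorted-microglia genes was 2.23 with only the 8 libraries, 2.24 with 12 libraries and 2.26 in the earlier table. That of the oligodendrocytic markers ranged from -1.48 to -1.30 when single libraries were left out, and the cause was not tested.

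Between suspensions with and without inhibitors, the mouse as a block gave 150 called genes, 15 of them higher, where 94 and 1 were called without it, and 89 genes were shared. The number higher was 3 under the DESeq2 Wald test and 0 to 3 when single mice were left out. For the difference of the TRAP and Input changes, the number called higher was 518 with DESeq2 size factors, 533 under the DESeq2 Wald test and 1182 with the mouse as a block (5780 called in all). The cause was not tested. The block could not be used between suspension and tissue, which share no mouse, and it moved no other count by over 1.5 times.

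The log2 change of Mef2c was -0.0159 with DESeq2 size factors, -0.0158 under the Wald test, -0.0239 without a filter, -0.19 with the filter of 10 counts, and -0.0711 to 0.21 when single libraries were left out. The Input change of Cgn was -0.0144 to 0.40 when single mice were left out. Calls of single genes also changed for Nfkbia, at 0.93 under the filter of 10 counts, Rpl38, at -0.998 in the earlier table, and Alb, with limma (adjusted p = 0.27). Mice of the groups differ, and genes near 3 counts have no reliable fold.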

Other observations

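Of 25 genes of proteins secreted by the liver, a list written after their values were seen, 19 were among the sorted-microglia genes and tested. Of these, 13 were lower and 0 higher in Cell-TRAP (+) Inhibitors than in Tissue-TRAP. Their summed level was 46.3, 73.7, 90.9 and 135 CPM in the tissue libraries of mice 946 to 949, and 36.4, 43.4, 32.3 and 28.6 CPM in the suspension libraries of mice 156, 157, 1361 and 1362. The suspension libraries lay below all tissue libraries. Apart from Alb, the highest mean level among them was 3.55 CPM.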
